A study of Saccharomyces cerevisiae with 161 samples.

Results

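Rec8 peaks that were mostly not covered by Red1 peaks were examined in wild-type meiotic cells of the budding yeast Saccharomyces cerevisiae. Chromatin immunoprecipitation followed by sequencing (ChIP-seq) had given 1 list of broad peaks for each of Rec8, Red1 and Hop1. A Rec8 peak was taken when less than 50% of its width lay under Red1 peaks, and such peaks are called Red1-poor here. They numbered 243 of 1592 Rec8 peaks (15.3%). Of these, 140 shared no base with a Red1 peak (8.79% of all Rec8 peaks) and 103 were partly covered. The remaining 1349 Rec8 peaks are called the other Rec8 peaks.

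Rec8 is the meiosis-specific kleisin subunit of cohesin, the ring complex that holds sister chromatids together and that organises meiotic chromosomes into loops along an axis. Red1 is a structural protein of that axis, and Hop1 is its HORMA-domain partner. Both are needed for normal levels of the programmed DNA breaks that start meiotic recombination, and much of their chromosomal pattern depends on cohesin. In yeast, cohesin is known to accumulate around centromeres and towards the ends of genes.

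All samples were cells of the SK1 strain background, in which meiosis proceeds synchronously through a culture, collected 3 h after meiotic induction at 30°C. The labels list 2 Rec8 samples, both from strain H4471 and precipitated with anti-HA through an epitope tag. They list 4 Red1 samples, 3 from strain H119 and 1 from strain H6408, and 4 Hop1 samples, 2 from H574, 1 from H119 and 1 from H6408, all precipitated with antibodies against the proteins themselves. Strain H6408 carries SMC4-PK9, a tagged condensin subunit, and its Red1 and Hop1 samples share an input. The names of the pooled lists carry 2 numbers for Rec8 and 4 each for Red1 and Hop1, as many as the labelled samples. Which samples these numbers stand for is not stated, and the methods of the study give 2 biological replicates for ChIP data. As far as the labels show, Rec8 and Red1 were thus compared between different strains. The Rec8 list covered 25.2% of the chromosome spans, the 1571 Red1 peaks 29.8% and the 1514 Hop1 peaks 29.1%.

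Each list pools replicates, so that no spread between replicates can be given, and the depth behind the peaks is unknown. The Red1 cover, and with it every Rec8 and Red1 value below, chose the peaks or came from the same libraries. All comparisons are therefore descriptions with no test. A stretch without a Red1 peak is one where no peak was called, which does not mean that Red1 was absent there.

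The Red1-poor peaks comprised a large group with no Red1 peak at all and a thinner spread of partial overlaps. Between them, the step of cover above 0% and up to 5% held 1 Rec8 peak, and the step from 5% to 10% held 1 more. The number per step of 5% then rose unevenly to 24 between 45% and 50%, and the step from 95% to 100% held 885. The median cover of the other Rec8 peaks was 99.2%.

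**Figure D1:**
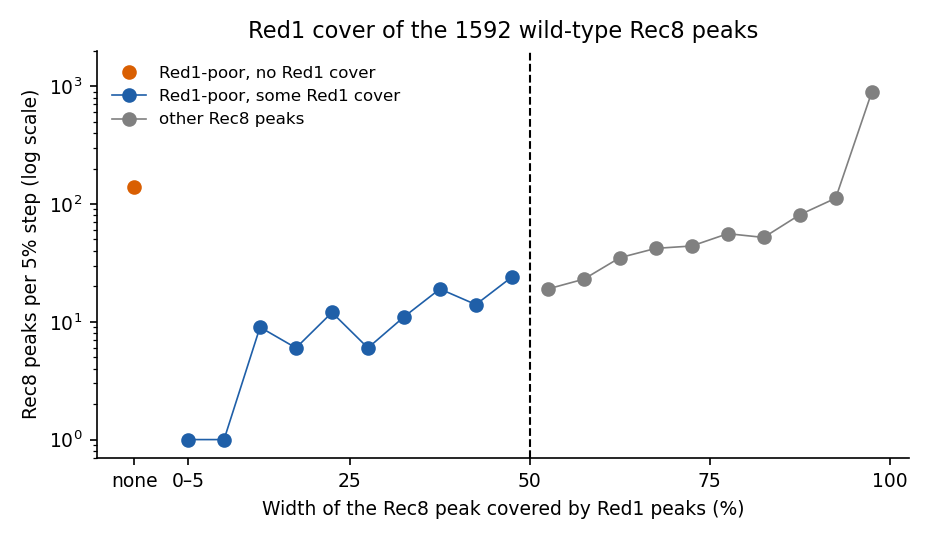
Number of Rec8 peaks (vertical axis, log scale) by the percentage of their width covered by Red1 peaks (horizontal axis, steps of 5%, with the 140 peaks without any cover at the left). The dashed line marks the 50% limit, below which lie 140 peaks without and 103 with some Red1 cover.

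The limit at 50% cut through a continuous series. Just inside it, the peak at chrXVI:442295-445818 had a Red1 cover of 49.97% and a Rec8 fold enrichment over input of 1.90. The peak at chrXIII:238078-240629 followed with a cover of 49.8% and a fold enrichment of 2.86, and the peak at chrV:134589-136649 with 49.8% and 1.58. Just outside it, the peak at chrXVI:39850-42685 had a cover of 50.04% and a fold enrichment of 1.66. The peak at chrXVI:547247-556333 had 50.2% and 2.38, and the peak at chrXV:311744-316066 had 50.3% and 2.75. The peaks on either side of the limit thus overlapped in enrichment, and positions are those of the SK1 genome throughout.

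The Red1-poor peaks tended to be narrower and less enriched than the other Rec8 peaks, but a minority were among the widest Rec8 peaks of the genome. Their median width was 798 bp (quartiles 361 and 1675 bp, range 200 to 9640 bp), against 1728 bp (quartiles 958 and 2505 bp) for the other Rec8 peaks. The peaks with no Red1 cover had a median width of 450.5 bp and the partly covered ones 1771 bp, so that the narrow widths belonged to the former. All Rec8 peaks were also divided into 4 width classes of about equal number. Of the 243 Red1-poor peaks, 121 were in the narrowest class, up to 792 bp, which holds 25.0% of the list, and 101 of these 121 had no Red1 cover. Under 500 bp were 80 Red1-poor peaks (32.9%) and 157 other Rec8 peaks (11.6%). At the opposite extreme, 38 Red1-poor peaks (15.6%) were in the widest class, from 2429 bp, which holds 24.9% of the list. Wider than 5 kb were 13 Red1-poor peaks (5.35%) and 41 other Rec8 peaks (3.04%).

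The Rec8 fold enrichment, averaged over each peak, had a median of 1.35 in the Red1-poor peaks (quartiles 1.24 and 1.58) and of 1.69 in the other Rec8 peaks (quartiles 1.45 and 2.04). It was above 2 in 23 of the 243 Red1-poor peaks (9.47%) and in 374 of the 1349 others (27.7%). The −log10 q of the peak, a measure of how far it stands out from the input, had a median of 7.41 against 25.9. It was under 5 in 88 Red1-poor peaks (36.2%) and in 133 others (9.86%), beside 13.9% of all Rec8 peaks. Among the 140 peaks with no Red1 cover, 65 (46.4%) were under 5. Weakly supported Rec8 peaks were thus more frequent among the Red1-poor peaks, and their part in the other differences was not tested. The closing section gives values without them for the Red1-poor peaks only, not for the other Rec8 peaks.

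Width and enrichment were linked. In the narrowest class, the median fold enrichment was 1.27 in the Red1-poor peaks and 1.37 in the others. In the next 2 classes it was 1.38 against 1.60 and 1.53 against 1.97. In the widest class the order turned, with 1.93 in the 38 Red1-poor peaks and 1.86 in the 359 others. There, 18 of the 38 Red1-poor peaks exceeded 2, and 134 of the 359 others. The widest class thus held strong as well as weak Red1-poor peaks.

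**Figure D2:**
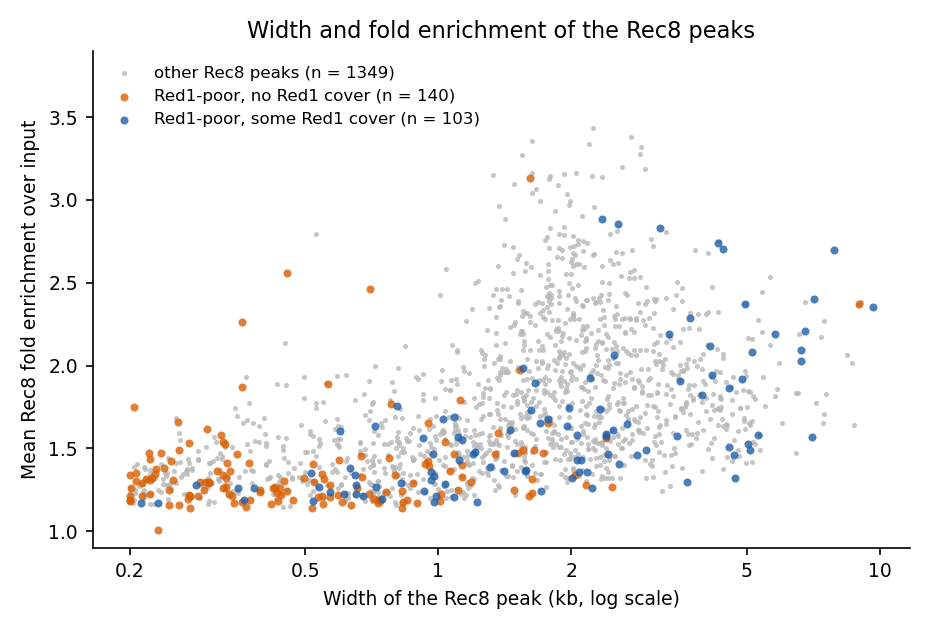
Width of each Rec8 peak (horizontal axis, kb, log scale) against its mean Rec8 fold enrichment over input (vertical axis), 1 point per peak. Peaks with no Red1 cover (n = 140) crowd at the lower left, with a median width of 450.5 bp, while partly covered Red1-poor peaks (n = 103) reach 9640 bp.

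The most enriched Red1-poor peak was at chrX:446815-448425, with a width of 1611 bp and a Rec8 fold enrichment of 3.13. No base of it lay under a Red1 peak, and Hop1 peaks covered 12.6% of it. On either side, at a short distance, lay a further pair of strong peaks. The peak at chrX:441754-444929 had a fold enrichment of 2.83 with 37.6% Red1 cover, and the peak at chrX:449425-454390 had 2.37 with 42.7% Red1 cover. All 3 were under 50% covered by Hop1.

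Other strong Red1-poor peaks lay away from chromosome ends and carried some Red1. The peak at chrXI:450644-452991 had a fold enrichment of 2.89 and 48.4% Red1 cover. On chromosome XIII, the peaks at chrXIII:238078-240629 and chrXIII:247551-251848 had fold enrichments of 2.86 and 2.74, with 49.8% and 31.6% Red1 cover. The peak at chrIV:465094-469517 had 2.70 with 47.2% Red1 cover. The peak at chrVIII:100740-108623, 7884 bp wide, had 2.70 with 38.9% Red1 cover. In each of these, the Red1 cover lay wholly inside the Rec8 peak and left both of its edges uncovered.

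The eighth by enrichment was of another kind. It was a peak of 453 bp at chrXIV:182-634, the outermost Rec8 peak of that chromosome, with a fold enrichment of 2.56 and neither Red1 nor Hop1 cover. The peaks with no Red1 cover that came next in enrichment included 2 more at the ends of a chromosome, at chrIV:1485883-1486582 with 2.46 and at chrIV:7157-7516 with 2.27, both without Hop1 cover. The strongest peaks with no Red1 cover thus fell either in the interior, as on chromosomes X and V, or at the very ends.

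The widest Red1-poor peak was at chrXIV:628437-638076, with 9640 bp. Parts of 3 Red1 peaks covered 21.7% of it and Hop1 peaks 11.8%, at a Rec8 fold enrichment of 2.35. Next was the peak at chrV:163166-172152, with 8987 bp and a fold enrichment of 2.37. No Red1 peak touched it, Hop1 covered 5.89% of it, and it lay in a gap of 20731 bp between neighbouring Red1 peaks. It was the only 1 of the 13 Red1-poor peaks wider than 5 kb without any Red1 cover. The remaining 3 of the 5 widest were at chrVIII:100740-108623, described above, at chrXIV:619515-626627 with 7113 bp and 36.2% Red1 cover, and at chrVIII:87306-94314 with 7009 bp and 17.2% Red1 cover.

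Wide Red1-poor peaks were grouped on their chromosomes. The 38 peaks of the widest class lay on 11 chromosomes, 9 of them on chromosome IV, and none on III, VI, IX, XI and XII. On each of the 11 chromosomes, the wide Red1-poor peak with the highest fold enrichment was taken as a reference, a choice made after the values were seen. Of the 27 remaining wide Red1-poor peaks, 13 (48.1%) had their midpoint within 30 kb of the reference. Of the 257 other Rec8 peaks of the same width class on these chromosomes, 17 (6.61%) did. Since the references are themselves Red1-poor peaks and come from the same list, the difference is a description of how they group.

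**Figure D3:**
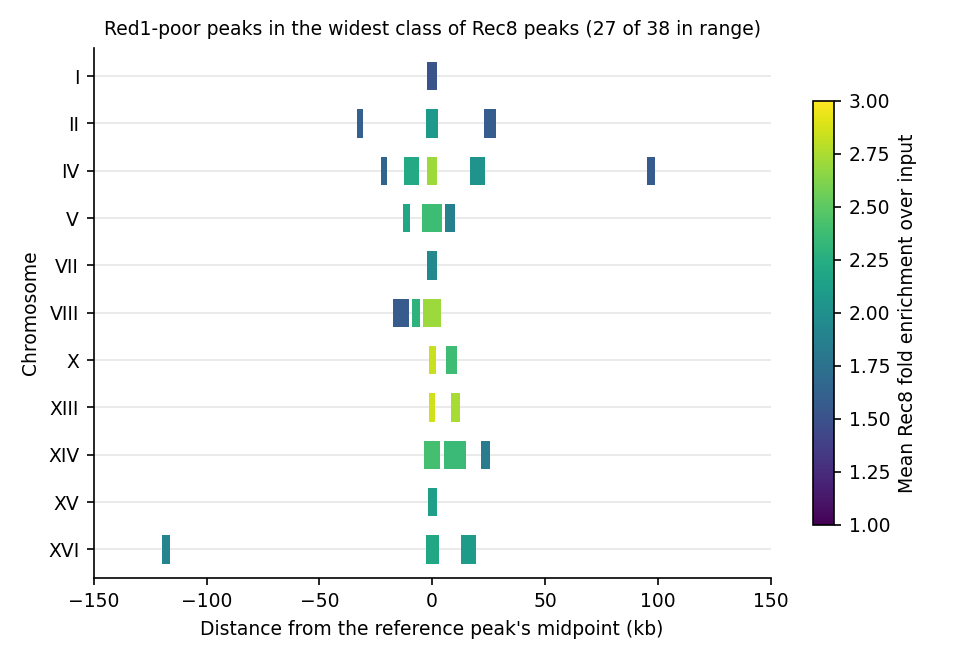
Position of the wide Red1-poor peaks (bars to scale, coloured by mean Rec8 fold enrichment) relative to the most enriched one of each chromosome (horizontal axis, kb), for the 11 chromosomes that hold any. The 27 of 38 peaks within 150 kb are drawn, 24 of which lie within 30 kb, the references included.

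The 24 wide peaks in these stretches, references included, had a median width of 4764 bp and a median fold enrichment of 2.19 (range 1.51 to 2.86). The references had been picked for their enrichment, and without them the 13 remaining had 4966 bp and 2.097 (range 1.57 to 2.74). The 14 wide peaks farther away had 3495.5 bp and 1.49 (range 1.27 to 2.06). Among Rec8 peaks outside the widest class, 25 of 53 (47.2%) were Red1-poor within 30 kb of a reference and 180 of 1142 (15.8%) elsewhere. For Rec8 peaks of any width, references included, 49 of 94 (52.1%) in the stretches were Red1-poor, beside 15.3% of all Rec8 peaks. The references are Red1-poor by choice, so the way the stretches were set raises this share. On chromosome XV it was 9 of 11, on chromosomes IV, V and XIV 5 of 7 each, on chromosome XVI 5 of 8, and on chromosomes II and XIII 3 of 12 and 2 of 8. On chromosome I it was 3 of 7, in a stretch at a chromosome end. The reference there had its midpoint 14660.5 bp from that end and, at 1.51, the lowest fold enrichment of the references. Median Hop1 cover was 31.8% in the 24 wide peaks of the stretches, 2 of which were at least 50% covered by Hop1, and 43.4% in the 14 farther ones, of which 6 were. Without the references, it was 27.4% in the 13 remaining, with 1 at least 50% covered. Positions of SK1 centromeres were not used here.

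Red1-poor peaks followed each other along the chromosomes. Of the 243, 152 (62.6%) had another Red1-poor peak as the next Rec8 peak on at least 1 side, whereas 238 of the 1349 other Rec8 peaks (17.6%) had a Red1-poor neighbour. They formed 50 runs of 2 or more and 91 single peaks. There were 21 runs of 2, 16 of 3, 8 of 4, 2 of 5, 2 of 6 and 1 of 8. The 29 runs of 3 or more held 110 of the peaks.

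The longest run comprised 8 peaks on chromosome XV, from chrXV:333957 to 370913. Its strongest peak, at chrXV:352679-356802, was 4124 bp wide with a fold enrichment of 2.12 and 36.1% Red1 cover. The peak at chrXV:340965-342177 had 23.3% Red1 cover and the other 6 of the run had none. These 6 were between 294 and 1772 bp wide with fold enrichments between 1.25 and 1.87. The highest of them, at chrXV:363748-364106, was only 359 bp wide and lay 9164 bp from the nearest Red1 summit.

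A run of 6 peaks reached from chrV:134589 to 177929 and included the peak of 8987 bp described above. Its neighbours at chrV:154584-157912 and chrV:173380-177929 had fold enrichments of 2.19 and 1.87 with 12.8% and 40.3% Red1 cover. The rest of the run comprised peaks of 2061, 1107 and 763 bp with fold enrichments of 1.58, 1.57 and 1.24, the last without Red1 cover. The other run of 6, from chrVII:955552 to 983998, had a different make-up. At its centre lay 3 peaks of 303, 225 and 315 bp with no Red1 or Hop1 cover and fold enrichments of 1.29, 1.32 and 1.36. They were flanked by partly covered peaks of 1620, 1960 and 1584 bp with fold enrichments of 1.73, 1.63 and 1.37. All 3 runs thus held narrow peaks without Red1 cover beside partly covered ones.

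Hop1 peaks, which had no part in choosing the regions, were largely missing from the Red1-poor peaks as well. Of the 243, 195 (80.2%) were under 50% covered by Hop1, against 80 of the 1349 other Rec8 peaks (5.93%) and 17.3% of all Rec8 peaks. No base was shared with a Hop1 peak in 122 Red1-poor peaks (50.2%) and in 35 others (2.59%), beside 9.86% of all Rec8 peaks. The median Hop1 cover was 0% in the Red1-poor peaks and 99.2% in the others. The labels give Red1 and Hop1 partly the same strains, with 1 sample of each sharing an input.

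The overlap with Hop1 followed the degree of Red1 cover. Of the 140 peaks with no Red1 cover, 110 (78.6%) had no Hop1 cover either, 15 had some under 50% and 15 were at least 50% covered. Of the 103 partly covered peaks, 12 had no Hop1 cover, 58 had some under 50% and 33 were at least 50% covered. Median Hop1 cover was 19.9% where Red1 cover was from 10% to under 20%, 26.6% in the next step of 10%, then 38.9%, and 48.1% from 40% to under 50%. In the 121 Red1-poor peaks that Hop1 peaks touched, the highest Hop1 fold enrichment over input had a median of 1.34. It was 1.78 in the 1314 other Rec8 peaks that they touched.

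This difference was not limited to narrow peaks. Under 50% Hop1 cover were 99 of 121 Red1-poor peaks (81.8%) in the narrowest class, 43 of 54 (79.6%) and 23 of 30 (76.7%) in the middle classes, and 30 of 38 (78.9%) in the widest. The corresponding shares of the other Rec8 peaks were 14.1%, 5.22%, 2.17% and 4.18%. The Rec8 peaks were also divided into 4 classes by fold enrichment. From the lowest class up, 117 of 136 Red1-poor peaks (86.0%), 35 of 57 (61.4%), 21 of 27 (77.8%) and 22 of 23 (95.7%) were under 50% covered by Hop1. The corresponding shares of the others were 17.6%, 6.16%, 1.62% and 1.87%, the last being 7 of 375. The share in the Red1-poor peaks was thus uneven across these classes.

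**Figure D4:**
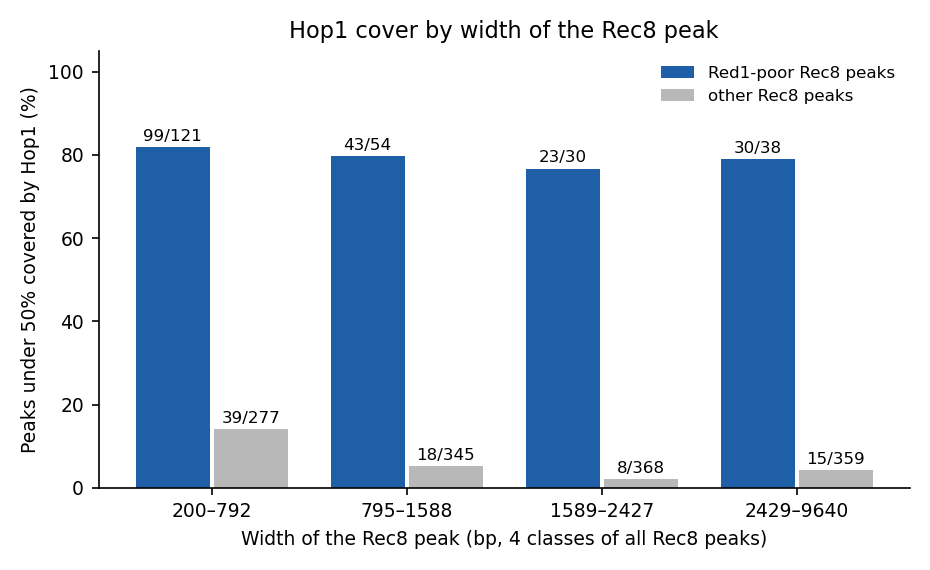
Percentage of peaks under 50% covered by Hop1 peaks (vertical axis) in each class of Rec8 peak width (horizontal axis, bp), for Red1-poor and other Rec8 peaks, with counts above the bars. The share lies between 76.7% and 81.8% in the Red1-poor peaks and between 2.17% and 14.1% in the others.

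In 48 Red1-poor peaks, Hop1 covered at least 50% of the width. The most enriched of these for Rec8, at chrII:244761-249890, was 86.1% covered by Hop1 and 46.0% by Red1, with a Rec8 fold enrichment of 2.08. The peak at chrXII:759226-760780 had 90.3% Hop1 and 47.8% Red1 cover at 1.99, and the peak at chrXVI:442295-445818 had 100% and 49.97% at 1.90. The peak at chrIV:481160-482811 had 51.5% Hop1 and 29.5% Red1 cover at 1.89, and the peak at chrXI:324557-325362 had 85.7% and 37.1% at 1.76. In 3 of these 5, Red1 cover was within 5 percentage points of the 50% limit.

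The Red1 summits, points of highest signal from another call on Red1 libraries, are not independent of the Red1 peaks that chose the regions. The summit list holds no score under 20.0, so that a missing summit means none above this level. The distance from the midpoint of a Red1-poor peak to the nearest Red1 summit had a median of 2496.5 bp (quartiles 721 and 5419.5 bp), against 210 bp (quartiles 85 and 452.5 bp) for the other Rec8 peaks. It was 4376 bp in the peaks with no Red1 cover and 489.5 bp in the partly covered ones. No Red1 summit lay inside 157 Red1-poor peaks (64.6%) and 66 others (4.89%), beside 14.0% of all Rec8 peaks. All 140 peaks with no Red1 cover lacked a summit, whereas 86 of the 103 partly covered ones (83.5%) held at least 1. The distance exceeded 5 kb in 65 Red1-poor peaks (26.7%) and in 10 others (0.741%).

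The 3 peaks farthest from a Red1 summit all lay near chromosome ends. They were at chrIV:1485883-1486582 with 29018.5 bp, at chrXV:187-1250 with 26455.5 bp and at chrIV:1480306-1481036 with 23457 bp. None of them had Hop1 cover. Their Rec8 fold enrichments were 2.46, 1.37 and 1.19, so that only the first was a strong peak.

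Red1 peak density was also taken around the peaks. Within 10 kb on either side of the midpoint, leaving out the nearest 1 kb, Red1 peaks covered a median of 15.6% of the sequence around Red1-poor peaks (quartiles 7.59% and 23.9%) and 24.9% around the others (quartiles 15.8% and 37.0%). The medians were 15.7% around the peaks with no Red1 cover and 15.5% around the partly covered ones. In the 4 width classes, they were 18.0%, 14.7%, 12.2% and 13.0% for the Red1-poor peaks, against 26.3%, 24.4%, 23.5% and 26.1% for the others. For wide peaks this window includes part of the peak itself, where Red1 cover was fixed by the choice of regions. In a window added after these values were seen, from 1 to 10 kb beyond each edge of the peak, the medians were 16.8% around the Red1-poor peaks and 24.5% around the others. In the widest class they were 13.5% and 21.6%.

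The gap to the nearest other Rec8 peak was a median of 2365 bp for the Red1-poor peaks and 2845 bp for the others. The longest such gap was 26971 bp for the Red1-poor peaks and 16104 bp for the others. For the 140 peaks with no Red1 cover, the nearest Red1 peak was a median of 3292 bp away (range 126 to 25039 bp) and the nearest Hop1 peak 2641.5 bp. Of these 140, 26 lay between the outermost Red1 peak and the chromosome end and 114 between neighbouring Red1 peaks.

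The 114 peaks occupied 92 of the 1555 gaps between neighbouring Red1 peaks (5.92%), with up to 3 in a gap. These 92 gaps had a median length of 9563 bp (range 2517 to 36974 bp), against 3658 bp for the 1463 gaps without such a peak. Longer gaps offer more room for a whole Rec8 peak. Among the 50 longest gaps, each of at least 15089 bp, 24 (48%) held a Rec8 peak that lay entirely within the gap. The longest, chrXII:338640-375613, held 2, and the next, chrV:294830-325441, held 3. The others of the 50 longest, such as chrXV:135170-160296 with 25127 bp, held no such Rec8 peak.

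In the 103 partly covered peaks, Red1 peaks lay wholly inside 66 (64.1%) and extended over 1 edge of 37 (35.9%). None had Red1 peaks running over both edges, which was the most frequent arrangement among the other Rec8 peaks, with 632 of 1349 (46.8%). A single Red1 peak over both edges covers the whole Rec8 peak, so the choice of regions left no room for it. The shares of these arrangements are therefore largely set by that choice. In 10 of the 103, 2 or more Red1 peaks contributed, and 8 of these 10 were in the widest class. The highest fold enrichment of the Red1 peaks concerned had a median of 1.39, against 1.80 in the other Rec8 peaks.

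The share of Rec8 peaks that were Red1-poor was highest next to chromosome ends. Within 10 kb of an end were 33 Red1-poor peaks (13.6%) and 26 others (1.93%), beside 3.71% of all Rec8 peaks. Within 20 kb were 42 (17.3%) and 62 (4.60%), beside 6.53% of all. Expressed by distance, 33 of 59 Rec8 peaks within 10 kb were Red1-poor (55.9%), 9 of 45 between 10 and 20 kb (20%), 12 of 132 between 20 and 50 kb (9.09%) and 22 of 207 between 50 and 100 kb (10.6%). Beyond this the share was 12.0% between 100 and 200 kb and 15.8% farther in. Of the 33 closest to an end, 26 had no Red1 cover and 15 had a −log10 q under 5. Their median Rec8 fold enrichment was 1.36, against 1.60 for the other Rec8 peaks within 10 kb. Most of the Red1-poor peaks, 201 of 243, thus lay farther than 20 kb from an end.

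**Figure D5:**
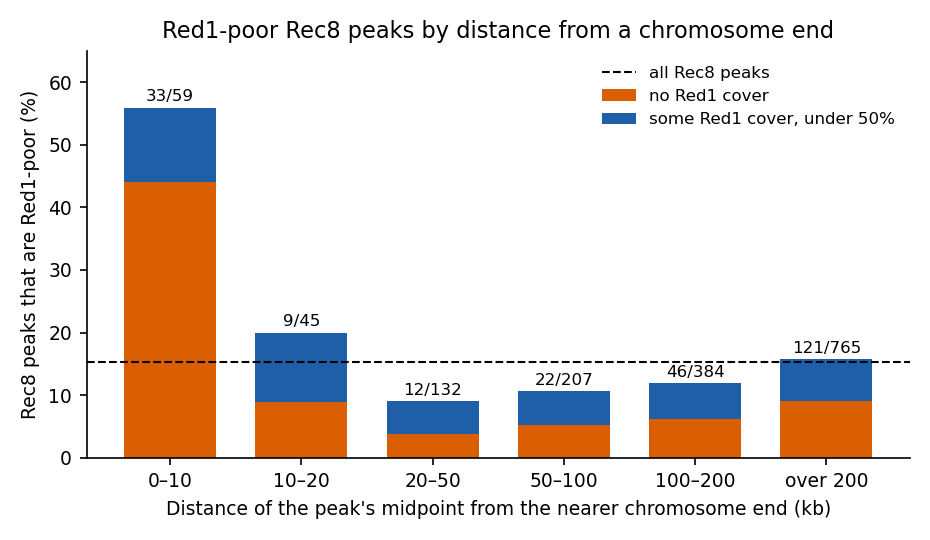
Percentage of Rec8 peaks that were Red1-poor (vertical axis) by distance of their midpoint from the nearer chromosome end (horizontal axis, kb), divided into those with no and with some Red1 cover, with counts above the bars. The share is 55.9% within 10 kb and between 9.09% and 20% in the other classes, with 15.3% over all Rec8 peaks as a dashed line.

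Chromosome ends were taken as the first and last position in any of the lists, and 24 of the 32 ends were set by a Rec8 peak. The outermost Rec8 peak was Red1-poor at 21 of the 32 ends and had no Red1 cover at 17. At 20 ends, a Red1-poor peak itself set the end. The distances are therefore tied to the reach of the lists. On the left of chromosome V, for example, the Red1-poor peak that set the end began only at position 21701. Where the outermost Rec8 peak was Red1-poor, its outer edge lay a median of 8826 bp beyond the outermost Red1 peak (range 74 to 26103 bp), and 14 of the 21 had no Hop1 cover. Rec8 fold enrichment in these 21 ranged from 1.18 at the right end of chromosome XIV to 2.56 at its left end, with a median of 1.56. On the left side of chromosome XV, 4 Rec8 peaks with no Red1 cover lay in the 26103 bp outside the outermost Red1 peak. At some ends the lists ended together, as on the right of chromosome I, where the outermost Rec8 peak was 99.4% covered by Red1. Ends of yeast chromosomes share repeated sequence, and because each read was placed at a single location, the part of mapping in the peaks called there was not tested.

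Red1-poor peaks were found on all 16 chromosomes, from 3 on chromosomes I and VI to 32 on chromosome XV. As a share of the Rec8 peaks of a chromosome, they ranged from 7.32% on VI, with 3 of 41, to 22.7% on XV, with 32 of 141. Chromosomes V, with 17 of 77 (22.1%), XI, with 19 of 91 (20.9%), and XIV, with 23 of 119 (19.3%), were also in the upper part of the range. Chromosomes I, with 3 of 33 (9.09%), XIII, with 12 of 123 (9.76%), and XII, with 14 of 134 (10.4%), were in the lower part. The share of Red1-poor peaks in the widest class also varied, on small counts. It was 4 of 11 on VIII, 4 of 12 on XIII, 9 of 30 on IV and 4 of 15 on XVI. None of the 19 on XI, the 14 on XII, the 8 on IX, the 6 on III and the 3 on VI were in that class. The remaining chromosomes lay between these extremes.

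Red1 and Hop1 are known for their high density on short chromosomes, which made the 3 shortest, I, III and VI, of interest. Together they held 12 Red1-poor peaks, 10.3% of their 117 Rec8 peaks, against 231 of 1475 (15.7%) on the other 13. Put differently, 4.94% of the Red1-poor peaks and 7.35% of all Rec8 peaks were on these 3 chromosomes. Of the 12, 7 were within 20 kb of an end. Farther than 20 kb from an end, 5 of 98 Rec8 peaks (5.10%) were Red1-poor on the 3 shortest chromosomes, against 196 of 1390 (14.1%) on the others. With 5 peaks on 3 chromosomes, this difference rests on few regions. Of these 3 chromosomes, I with 9.09% and VI with 7.32% had the lowest shares of all 16, while III with 14.0% was within the range of the longer ones.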

How the data were processed

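The authors mapped single-end reads with Bowtie to the SK1 genome, allowing perfect matches at a single location, lengthened each to 200 bp and discarded PCR duplicates. Broad peaks were then called with MACS2 2.1.1 on combined replicates at the default q-value limit. In the deposited lists, the authors' ratio of ChIP over input (fold enrichment) and the −log10 q-value are averages over each peak. The score in the authors' deposited Red1 summit list is of a type not given in the sources used here, and it served only to split the summits. No counts are in these lists, so the depth is unknown.

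From these, cover, distances and runs were computed in Python 3.11.15 with NumPy 2.4.6 and pandas 2.3.3, and the interval arithmetic was tested on simulated data. Peaks were compared by counts, medians and quartiles, with no test. Overlap was counted from 1 bp. A peak's midpoint gave its distances to Red1 summits, chromosome ends and reference peaks. Gaps to the nearest Rec8, Red1 or Hop1 peak were taken from edge to edge. Intervals reach past the S288C reference on 5 of 16 chromosomes, so no position, gene or sequence of that reference was used.

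Regions were named by rule: the 8 most enriched Red1-poor peaks, the 5 widest, the 5 most enriched with no Red1 cover and the 5 with at least 50% Hop1 cover, the 3 longest runs, 3 peaks on each side of the limit, and the 3 farthest from a summit. Neighbours of these, gaps and further ends were named after their values were seen. The regions and comparisons were chosen with earlier results of these data known. Of 161 samples, 3 had contradictory labels and were not used. Transcript levels were not used.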

Additional observations from a re-analysis of the deposited data

How the results depend on the processing

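The 8 main values were recomputed under 14 alternatives, 1 of them chosen after seeing the data, which gave 49 values. Of these, 33 stayed within 1.5 times a count or within the 95% interval of a percentage or median. The intervals take each peak as an independent unit, although Red1-poor peaks followed each other along the chromosomes. They hold no spread between replicates and serve only as a yardstick for the recomputed values. With Red1-poor set at under 75% cover, 406 peaks were taken, with a median width of 1190.5 bp and 56.2% under 50% Hop1 cover. In runs were 69.7% of them, and their median summit distance was 842.5 bp. On the 3 shortest chromosomes, 23 of 117 Rec8 peaks (19.7%) were then Red1-poor. Over all chromosomes, 406 of 1592 Rec8 peaks were Red1-poor at that limit, a higher share. The share on the other chromosomes alone was not taken. With only peaks of no Red1 cover, the values were 140 peaks, 450.5 bp, 89.3%, 38.6% in runs and 4376 bp. With only Rec8 peaks of −log10 q of at least 5, 155 peaks remained, with 1188 bp and 1666.5 bp, and 77.4% were under 50% Hop1 cover. Counting only peaks without any Hop1 base gave 50.2%. With only the higher-scoring 50% of the summits, their median distance was 6582 bp. Raising the q limit for Red1 peaks (256 peaks), joining Red1 peaks less than 500 bp apart (243) and leaving out the 3 shortest chromosomes (231) moved none of the values beyond these limits. The share within 20 kb of an end was 15.2% without those chromosomes and between 14.8% and 21.4% under the other definitions of the peaks. No paired analysis was possible because each list pools its replicates, and for the same reason no replicate could be left out. The absence of replicate lists and of depth limits every value.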
